A study of Mus musculus with 2 samples.

Results

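Endothelial cells were still present among sorted cells from which CD31-bearing cells had been excluded. They were the barcodes with 500 or more detected genes, at most 10% of mitochondrial-gene UMIs (unique molecular identifiers, each standing for 1 captured transcript), 2 or more of Emcn, Cdh5, Adgrl4, Flt1 and Selp, and at most 1 of the mural genes Notch3, Myh11, Rgs5, Gucy1a1 and Rgs4. In all, 413 of 15780 filtered cells met the rule, which is 2.62%. They were 61 of 6533 cells (0.934%, exact 95% interval 0.715% to 1.20%) in the pulse library and 352 of 9247 cells (3.81%, 3.43% to 4.22%) in the trace library. Each group was 1 library, so no test between groups was possible, and every interval given covers counting error only.

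Both libraries came from knee joint cartilage of Procr-CreER;tdTomato mice, in which a tamoxifen-dependent Cre driven from Procr switches on the red reporter tdTomato in cells that express Procr at the time of treatment, and in whatever descends from them. Tamoxifen was given at 4 weeks of age in both groups. The pulse cells were taken 2 days later and the trace cells 4 weeks later, so the trace mice were also older. Each library pooled 3 mice, and cells were sorted as negative for CD45, Ter119, CD31 and DAPI and positive for tdTomato. The labels name the cells superficial cells of articular cartilage, while the protocol describes digestion of periosteum together with epiphyseal cartilage.

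Endothelial cells line blood vessels. They hold together through VE-cadherin (Cdh5) and CD31 (Pecam1), respond to VEGF through Kdr and Flt1 and to angiopoietins through Tek and Tie1, and capture leukocytes through the selectins Selp and Sele. Procr encodes the endothelial protein C receptor, known from large-vessel endothelium as well as from several stem and progenitor populations. Articular cartilage has no vessels, whereas periosteum, synovium and bone marrow do. ETS factors such as Erg and Fli1 bind a GGAA core and are known regulators of endothelial genes.

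Because the endothelial genes were high together in these cells, 5 promoters are shown, each as the 250 bases before the transcription start (RefSeq sequences, build GRCm38.p6). Capitals mark every match to the ETS-type words CAGGAA and CCGGAA or their reverse complements TTCCTG and TTCCGG. Emcn, Kdr, Tie1 and Flt1 are endothelial markers, and Procr is the gene that drove the reporter.
Emcn, chr3:137340828-137341077, plus strand: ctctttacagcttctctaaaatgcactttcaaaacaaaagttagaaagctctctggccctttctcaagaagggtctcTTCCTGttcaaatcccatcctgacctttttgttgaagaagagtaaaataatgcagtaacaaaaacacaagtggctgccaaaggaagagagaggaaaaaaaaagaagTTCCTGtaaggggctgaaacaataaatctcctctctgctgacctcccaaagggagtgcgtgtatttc
Kdr, chr5:75978456-75978705, minus strand: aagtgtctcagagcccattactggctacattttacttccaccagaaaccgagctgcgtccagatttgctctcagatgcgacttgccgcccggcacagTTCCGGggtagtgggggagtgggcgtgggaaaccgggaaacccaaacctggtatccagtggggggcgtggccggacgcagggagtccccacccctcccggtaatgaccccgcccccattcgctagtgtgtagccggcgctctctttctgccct
Tie1, chr4:118489850-118490099, minus strand: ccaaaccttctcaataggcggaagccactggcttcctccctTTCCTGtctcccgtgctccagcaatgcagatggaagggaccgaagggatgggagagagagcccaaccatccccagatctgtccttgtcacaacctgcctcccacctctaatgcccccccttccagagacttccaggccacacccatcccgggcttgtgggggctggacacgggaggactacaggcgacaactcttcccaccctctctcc
Flt1, chr5:147726012-147726261, minus strand: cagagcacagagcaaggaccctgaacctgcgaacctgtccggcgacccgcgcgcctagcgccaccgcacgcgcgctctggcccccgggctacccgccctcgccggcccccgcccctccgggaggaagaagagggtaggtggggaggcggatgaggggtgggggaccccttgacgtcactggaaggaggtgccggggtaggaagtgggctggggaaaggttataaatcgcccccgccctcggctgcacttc
Procr, chr2:155750967-155751216, plus strand: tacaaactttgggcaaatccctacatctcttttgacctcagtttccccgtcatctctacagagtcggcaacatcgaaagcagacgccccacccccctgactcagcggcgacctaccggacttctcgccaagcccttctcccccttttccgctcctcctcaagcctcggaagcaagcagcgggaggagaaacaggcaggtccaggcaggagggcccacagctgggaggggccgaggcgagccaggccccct
The Emcn window held 2 matches, the Kdr and Tie1 windows 1 each, and the Flt1 and Procr windows none. Either word was present at any listed start of 2 of the 4 matched endothelial markers of the rule (Emcn and Adgrl4, not Flt1 or Selp), of 9 of the 12 matched pan-endothelial genes outside the rule, of 4 of the 8 matched chondrocyte markers, and of 38.2% of all 27025 genes in the table. A match describes the letters only.

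The 61 pulse members held 175363 UMIs and the 352 trace members 1181198. The median member had 2023 UMIs in the pulse (range 690 to 12916) and 2536 in the trace (737 to 25338), against medians of 2847 and 3687 in the other filtered cells. The libraries shared 16 barcodes, and 0 of them were members. The mitochondrial share had a median of 1.13% in trace members and 1.25% in the other trace cells. Levels are given as CPM (UMIs of a gene summed over the group's cells and scaled to a fixed total), and "other trace cells" are the 8895 filtered cells outside the rule, 163 of which had 1 of the 5 endothelial markers and at most 1 mural marker.

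The 5 endothelial markers that chose the cells are given as a description. Emcn, a sialomucin of capillary and venous endothelium, had 0 to 57 UMIs per trace member with a median of 2. Its level was 1421 CPM in trace members and 3.70 CPM in the other trace cells, a ratio of 384. Cdh5 had 0 to 28 UMIs per trace member (median 2), 687 CPM in members and 2.70 CPM elsewhere. Adgrl4, an adhesion receptor of sprouting endothelium, stood at 1010 against 3.07 CPM. Flt1, a VEGF receptor and decoy, stood at 997 against 5.28 CPM. Selp, the P-selectin that starts leukocyte rolling, was detected in only 38.4% of trace members, while each of the other 4 was detected in 69.3% to 80.4%. Pulse members had similar levels, with Emcn at 1369 CPM, Cdh5 at 781, Adgrl4 at 1026, Flt1 at 764 and Selp at 605.

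Of the trace members, 82 carried 2 of the 5 markers, 94 carried 3, 129 carried 4 and 47 carried all 5. Just inside the threshold, cells with 2 markers had 3292 CPM of the 24 pan-endothelial genes outside the rule and a median of 5 of these genes detected. Just outside it, the 163 cells with 1 marker and at most 1 mural marker had 557 CPM and a median of 1 gene. Cells with 0 markers and at most 1 mural marker had 84.8 CPM. The cells with 2 markers also held 19583 CPM of 12 chondrocyte markers, more than the 5860 CPM of cells with 3 markers. A further 13 trace cells had 2 or more endothelial but also 2 or more mural markers and were not members.

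The endothelial label held on genes that the rule did not use. At least 3 of the 24 other pan-endothelial genes were detected in 334 of 352 trace members (94.9%) and in 1.37% of the other trace cells. The median member had 7.5 of them and the richest had 20. In the pulse, 56 of 61 members (91.8%) and 0.294% of the other cells reached 3. All 22 of these genes that reached 20 CPM in trace members or other trace cells were 2-fold or more higher in members, with a median log2 ratio of 6.48. However, 0 of the 24 reached 20 CPM in the other trace cells. The 22 thus passed the floor through the members alone, which favoured higher calls in advance. Across all 6803 genes tested at that floor, 17.6% were 2-fold higher and 14.9% were 2-fold lower in members, and the median log2 ratio was 0.15. Of the called genes 54.1% were higher, or 46.95% after dividing all ratios by their median. The cells were chosen from these same counts, so the ratios describe them and test nothing.

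Pecam1, which encodes the CD31 protein that the sort excluded, was abundant in the members. It had 0 to 21 UMIs per trace member with a median of 2, and at least 1 UMI in 291 of 352 (82.7%, 78.3% to 86.5%). Its level was 901 CPM in trace members, 11.3 CPM in the other trace cells and 998 CPM in pulse members. The share with a UMI was 3.09% in trace cells gated as neutrophils, 1.95% in cells gated as chondrocytes and 3.51% in mural-gated cells. Cells were also thinned to 1000 UMIs, leaving out 21 shallower trace members, 9 pulse members and 301 other trace cells. After thinning, 59.2% of the trace members kept a Pecam1 UMI, against 1.22% of the other trace cells. The 61 trace members with no Pecam1 UMI were shallower, at a median of 1700 UMIs, and held 2888 CPM of the other 23 pan-endothelial genes against 4522 CPM in those with one. RNA does not report the surface protein, which was not measured here.

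Procr was not enriched in trace members over the other trace cells. It had 0 to 6 UMIs per trace member and was at 0 in most, with a UMI in 66 of 352 (18.8%, 14.8% to 23.2%). The level was 94.8 CPM in trace members and 113 CPM in the other trace cells, a ratio of 0.841 (0.691 to 1.01). The mural-gated cells stood far higher at 948 CPM (47.4% with a UMI), and fibroblast-gated cells were at 338 CPM. Chondrocyte-gated cells (16.8 CPM, 5.13% with a UMI) and neutrophil-gated cells (15.8 CPM, 4.12%) lay below the members. After thinning, 7.86% of trace members (5.20% to 11.3%), 1.18% of chondrocyte-gated and 3.11% of neutrophil-gated cells (1.15% to 6.64%) had a Procr UMI, so the intervals of members and neutrophil-gated cells overlapped. In the pulse, 11 of 61 members had a Procr UMI, and the level was 108 CPM from 19 UMIs against 52.1 CPM in the other pulse cells.

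The reporter transcript Tdtomato was detected in 71 of 352 trace members (20.2%, 16.1% to 24.8%) and in 22.4% of the other trace cells. Members had 0 to 5 UMIs of it and 85.5 CPM, the other trace cells 78.6 CPM, while 2.06% of neutrophil-gated cells (0.565% to 5.20%) had a UMI. After thinning, it remained in 11.8% of members (8.51% to 15.8%) and in 6.78% of the other trace cells (6.26% to 7.34%), so the order of the 2 shares turned at equal depth. By class it remained in 12.4% of mural-gated, 13.98% of fibroblast-gated, 5.45% of chondrocyte-gated and 0.518% of neutrophil-gated cells. Members with and without a Tdtomato UMI had close levels of Pecam1 (875 and 909 CPM) and of the pan-endothelial genes (4867 and 5326 CPM). In pulse members a UMI was found in 11 of 61 (9.36% to 30.0%), an interval that spans the trace value.

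**Figure D1:**
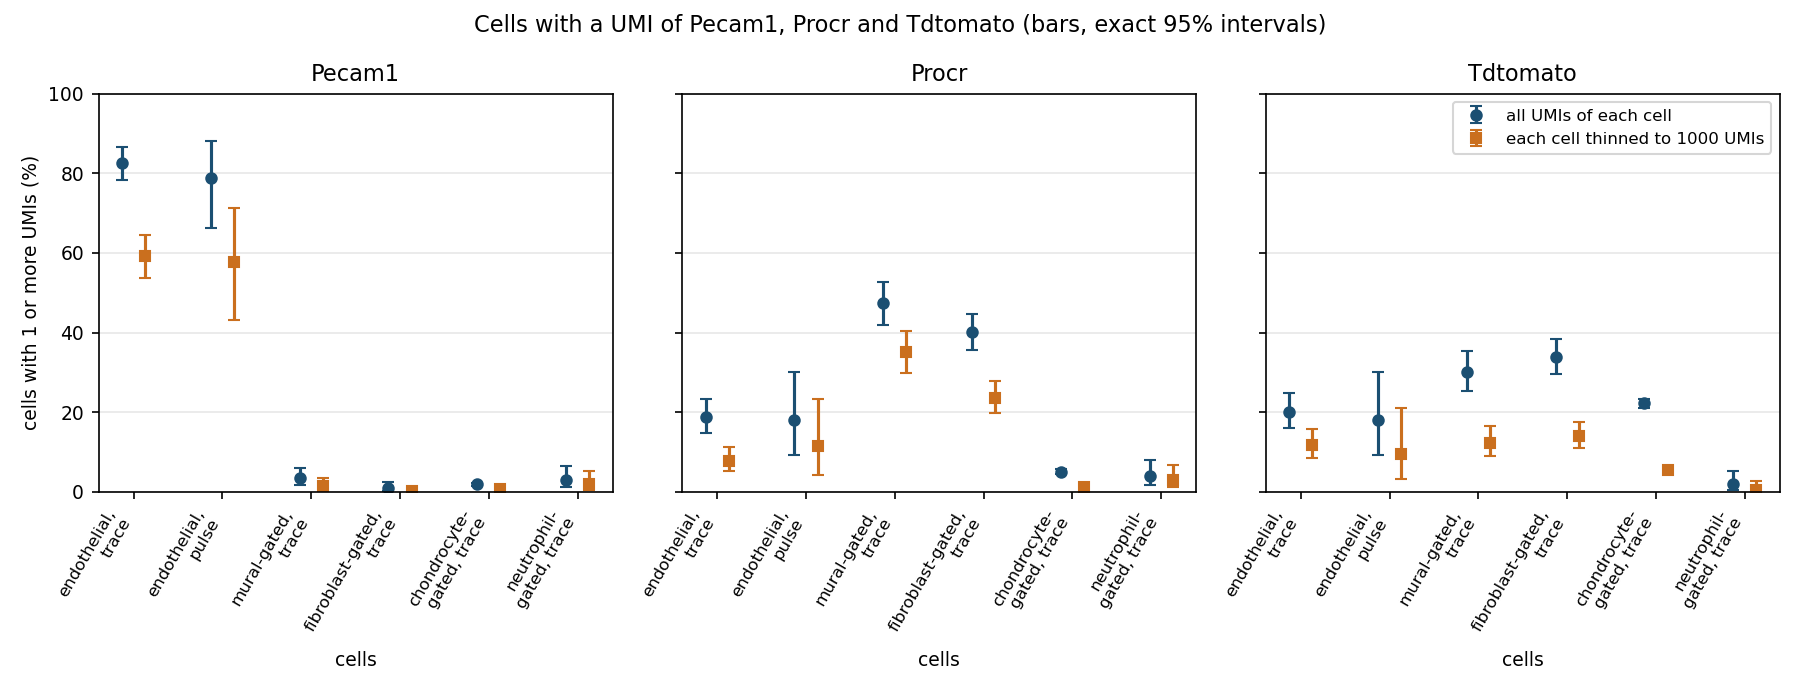
Share of cells with 1 or more UMIs of Pecam1, Procr and Tdtomato (y axes, %) in pulse and trace endothelial cells and in 4 gated trace cell classes, before (circles) and after (squares) thinning each cell to 1000 UMIs; bars are exact 95% intervals. Pecam1 separates the endothelial cells (82.7% in the trace) from all 4 gated classes, Procr is highest in mural-gated cells (47.4%), and Tdtomato is lowest in neutrophil-gated cells (2.06%).

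Markers of most other cell types were low in the members. All 12 chondrocyte markers were 2-fold or more lower than in the other trace cells, 10 of 11 tested fibroblast markers and 7 of 7 neutrophil and osteoblast markers were lower, and the mural list had 5 lower and 2 higher of 8. Of these 5 lower genes, 2 were mural genes of the rule, which limited them in the members. The mural exceptions were Kcnj8 (29.6 against 2.02 CPM) and Abcc9 (24.6 against 4.15 CPM), subunits of an ATP-sensitive potassium channel. Of 6 tested markers of blood stem and progenitor cells, 4 were higher and 1 lower, and 52 of 352 members (14.8%) had 3 or more of the 10 listed, against 1.05% of the other trace cells. The higher ones were Kit (70.3 against 3.60 CPM), Cd34 (190 against 18.5), Gata2 (93.1 against 6.25) and Mecom (391 against 17.1), of which Cd34, Gata2 and Mecom also stand in the endothelial lists. Stress genes were higher than in the other trace cells, with 5 of 9 heat shock genes (Hspa1b 4484 against 1643 CPM) and 5 of 15 immediate-early genes (Jun 825 against 233 CPM) past 2-fold. Against mural-gated trace cells 0 of 9 heat shock genes were past 2-fold (median -0.04), and 1 immediate-early gene was higher and 1 lower of 15 (median -0.27), where 15.4% of all 7028 genes tested were higher and 17.2% lower. At least 3 markers were detected in 2 of 352 members for the mural list, 5 for leukocytes, 4 for neutrophils, 4 for erythroid cells and 5 for lymphatic endothelium. The mural count was held down by the rule, which allowed at most 1 of the 5 mural genes it shares with that list. Of the leukocyte genes, Ptprc, which encodes CD45, was at 17.8 CPM from 7 members, with 52.4% of its UMIs in 1 cell. Haemoglobin genes were higher than in the other trace cells (Hbb-bs 750 against 323 CPM), yet 53.7% of the Hbb-bs UMIs came from 1 member, and all 4 tested erythroid genes were lower when only cells with 1000 or more detected genes were kept.

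Chondrocyte RNA was the largest foreign signal, at 10050 CPM summed over 12 markers against 44150 CPM in the other trace cells. The 12 markers took a median of 0.0591% of a trace member's UMIs, 0 in 81 members, at least 1% in 36 and at least 5% in 10, with a highest value of 10.3%. Prg4, the lubricin of the cartilage surface, had a UMI in 52.3% of members, but also in 97 of 194 neutrophil-gated cells, and after thinning in 32.6% and 28.5%. At least 3 of 6 chondrocyte gate markers (Acan, Sox9, Hapln1, Cytl1, Chad and Matn3) were detected in 34 trace and 6 pulse members. Without these members, 23 of 23 tested pan-endothelial genes remained 2-fold higher, with a median log2 ratio of 6.68. All 23 passed the floor through the remaining members alone. The median of the chondrocyte list was then -5.76 in place of -2.03. The part of the chondrocyte-carrying members in the other results was not tested beyond the values given without them.

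**Figure D2:**
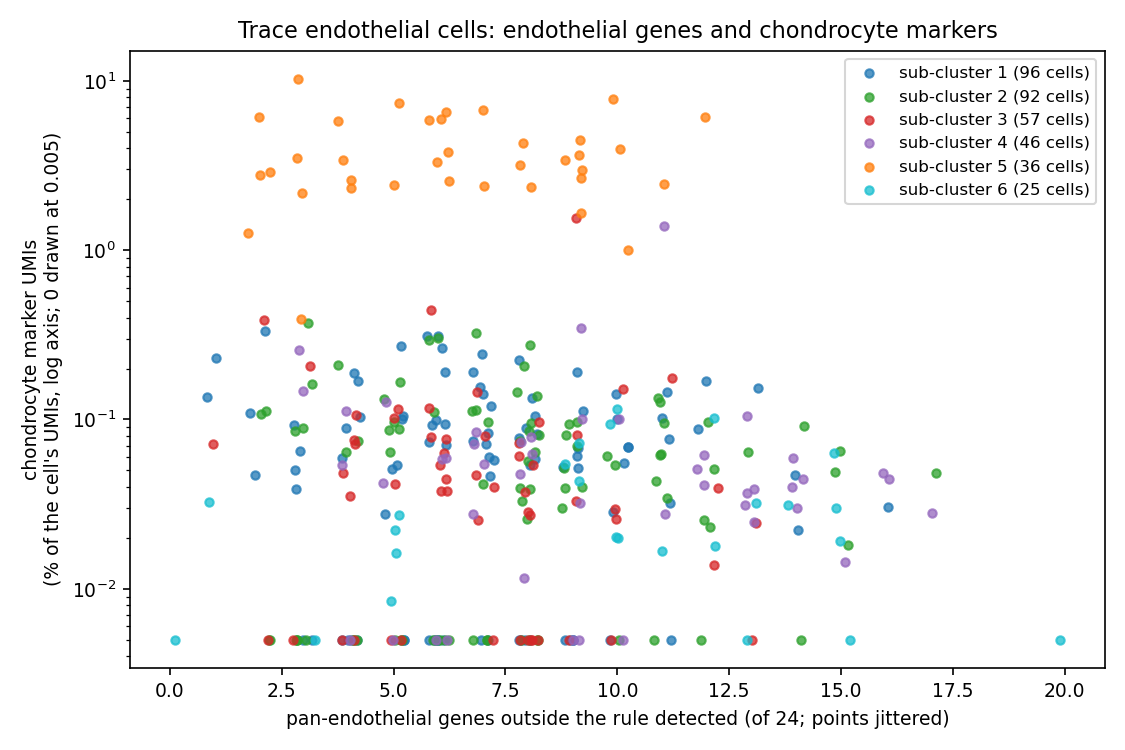
Each point is 1 of the 352 trace endothelial cells, placed by the number of 24 pan-endothelial genes detected (x axis) and by the share of its UMIs from 12 chondrocyte markers (y axis, %, log scale, 0 drawn at 0.005), coloured by sub-cluster. The cells of sub-cluster 5 lie between 0.391% and 10.3% on the y axis, while 0 cells of sub-clusters 1, 2 and 6 reach 1%.

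Receptors of the VEGF and angiopoietin systems were among the most enriched genes. Of the 7 tested VEGF genes besides Flt1, which helped to choose the cells, 6 were 2-fold higher in trace members than in other trace cells and 1 was lower (median log2 ratio 3.96). At most 2 of the list reached 20 CPM in the other trace cells. The rest passed the floor through the members alone, which favoured higher calls in advance. The same limit holds for the lists below where few genes reached 20 CPM in the other trace cells. Over all 6803 genes tested, 17.6% were higher and 14.9% lower. Kdr, the main signalling VEGF receptor, had 282 CPM against 1.47 (ratio 192, 144 to 259) and was detected in 42.3% of members. The lymphatic-associated receptor Flt4 stood at 38.9 against 0.735 CPM, and the co-receptors Nrp1 and Nrp2 at 179 against 11.5 and 594 against 100.1 CPM. Among the ligands, Pgf (175 against 2.97 CPM) and Vegfc (53.3 against 5.38) were higher, and Vegfa was the 1 lower gene at 118 against 327 CPM. All 5 tested angiopoietin and Tie genes were higher, and at most 1 of them reached 20 CPM in the other trace cells. Tek, the angiopoietin receptor, had 193 against 2.13 CPM, its partner Tie1 had 25.4 against 0.184 CPM from 30 UMIs, and Angpt2, a ligand made by endothelium, had 225 against 2.44 CPM.

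Junction and surface genes followed. Of 12 tested besides Cdh5, a marker of the rule, 11 were 2-fold higher (median 2.25). At most 5 of the list reached 20 CPM in the other trace cells. Among the 11 higher genes, F11r, a junctional adhesion molecule, stood at 191 against 2.44 CPM. The scaffold Tjp1, the least raised of the 11, stood at 393 against 158 CPM. The claudin Cldn5 had 85.5 against 1.31 CPM but was seen in 13.6% of members. Ptprb, the vascular phosphatase that acts on Tek, had 240 against 1.23 CPM, and Egfl7, a secreted vessel protein, 187 against 2.41 CPM. Mmrn2, a vessel matrix protein (279 against 1.42 CPM), its partner Cd93 (459 against 10.3 CPM) and the diaphragm protein Plvap of fenestrated vessels (236 against 4.17 CPM) were detected in 38.1% to 57.4% of members. Vwf, a clotting factor of larger vessels, was sparse, with 17 UMIs in all and 14.4 CPM.

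Notch genes were higher in 8 of 9 tested, with a median of 3.12. At most 4 of the list reached 20 CPM in the other trace cells. Against mural-gated trace cells, 6 of 12 were higher and 2 lower. Dll4, the Notch ligand of arterial and tip cells, had 78.7 against 0.682 CPM, Notch1 165 against 12.7 CPM, and Jag1 93.1 against 21.1 CPM. Rbpj, the nuclear partner of Notch, ran the other way at 198 against 392 CPM, short of 2-fold. The arterial ephrin Efnb2 (115 against 25.7 CPM) and the venous receptor Ephb4 (48.3 against 5.54 CPM) were both higher. Among BMP and TGF-beta genes, 9 of 13 were higher than in the other trace cells and 2 lower (median 1.53). Against mural-gated trace cells, 6 of 13 were higher and 0 lower (median 0.88). Eng, the endoglin co-receptor, had 838 against 19.1 CPM and a UMI in 72.7% of members. The inhibitory Smad7 had 439 against 111 CPM, Id3, a BMP target, 579 against 162 CPM, and Smad1 370 against 60.5 CPM. The ligand Bmp6 (432 against 955 CPM) and Id2 (157 against 399 CPM) were the 2 genes lower than in the other trace cells.

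Of 18 tested endothelial transcription factors, 16 were 2-fold higher and 0 lower (median 3.21). At most 9 of the list reached 20 CPM in the other trace cells. The SOX factors Sox7 (163 against 1.99 CPM), Sox17 (62.6 against 0.499) and Sox18 (84.7 against 0.499) were all higher. Mecom had 391 against 17.1 CPM, and the venous factor Nr2f2 had 132 against 13.7 CPM. The ETS genes differed by less, because the other trace cells carried them too, with Erg at 496 against 185 CPM, Fli1 at 211 against 36.8 and Ets1 at 571 against 214. The flow-responsive Klf2 (135 against 140 CPM) and Klf4 (420 against 695 CPM) were the 2 factors under 2-fold in either direction.

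Leukocyte capture genes besides Selp, a marker of the rule, were higher in 6 of 7 tested (median 3.36). At most 2 of the list reached 20 CPM in the other trace cells, so most passed the floor through the members alone. Sele, the E-selectin induced by inflammatory signals, had 206 against 0.840 CPM and was seen in 81 of 352 members. Vcam1 had 73.7 against 9.40 CPM, Podxl 130 against 1.42 and Ackr1, a venule chemokine receptor, 37.3 against 0.866. Icam1 was just short of 2-fold, at 724 against 369 CPM. In haemostasis, 6 of 9 genes were higher, where 17.6% of all genes tested were. Against mural-gated trace cells, 5 of 9 were higher and 1 lower, at summed levels of 1732 and 1702 CPM. Thbd, the thrombomodulin that activates protein C beside Procr, had 122 against 60.3 CPM, and the protein C cofactor Pros1 83.8 against 28.3. Tfpi, an inhibitor of clotting onset, had 317 against 1.73 CPM, but 43.2% of its UMIs came from 1 cell.

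Scavenger genes of sinusoidal type were higher in 6 of 6 tested, of which at most 1 reached 20 CPM in the other trace cells. Stab1 had 56.7 against 0.892 CPM in 48 members and Cd36 226 against 3.54 CPM, whereas 57.9% of Stab2 UMIs lay in 1 cell. Basement membrane genes were higher in 10 of 15, with Col18a1 at 394 against 15.2 CPM and Col4a1 at 721 against 87.3, and 1 lower, Sparc, at 1583 against 4630. Against mural-gated trace cells, 5 of 15 were higher and 3 lower (median 0.22), at summed levels of 4931 and 6159 CPM. In that comparison 15.4% of all 7028 genes tested were higher and 17.2% lower. Of 15 angiocrine genes, 7 were past 2-fold upward and 3 downward, and the list's median was 0.07, or -0.07 when ratios were divided by the median of all genes. Kitl, the stem cell factor that supports blood progenitors, had 691 against 12.3 CPM, the mural-cell attractant Pdgfb 171 against 1.10, and endothelin Edn1 136 against 1.97. Vascular tone genes were higher in 8 of 11, including Nos3, the endothelial nitric oxide synthase (47.4 against 0.472 CPM), S1pr1 (319 against 10.7) and the CGRP and adrenomedullin receptor Calcrl (814 against 54.3). At most 5 of that list reached 20 CPM in the other trace cells. The fatty-acid carrier Fabp4 had 1836 against 30.9 CPM in 56.3% of members. Antigen presentation and interferon genes were higher in 8 of 11, such as B2m (897 against 247 CPM), the light chain of class I molecules, and Ifitm3 (317 against 40.7 CPM). Against mural-gated trace cells, 5 of 13 were higher and 2 lower (median 0.80).

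**Figure D3:**
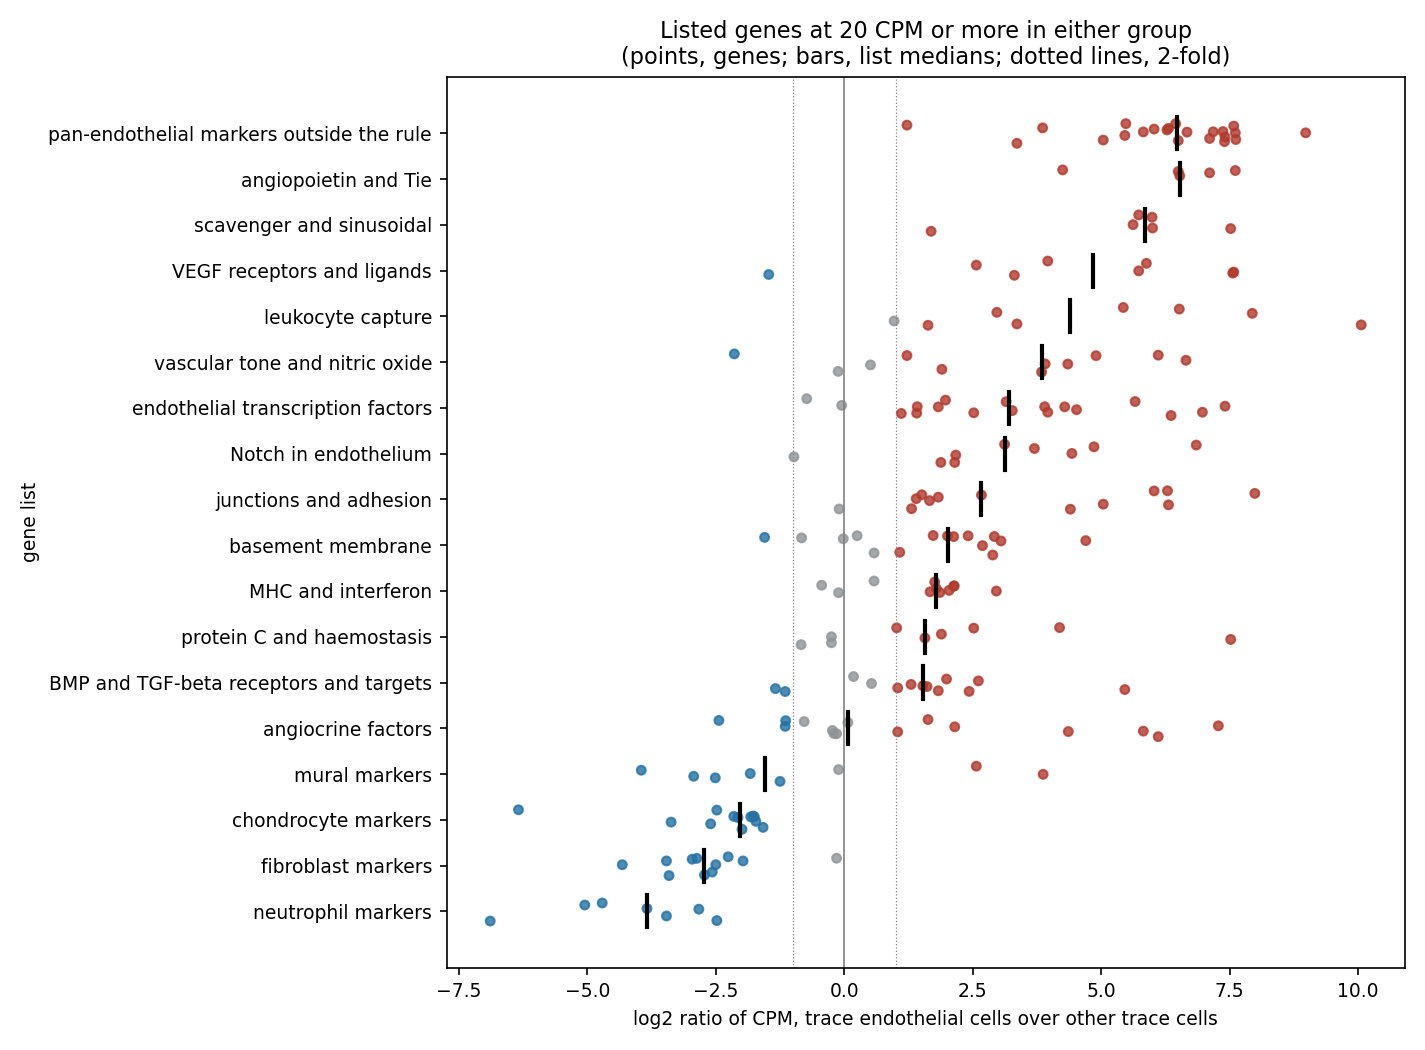
Log2 ratio of CPM in trace endothelial cells over other trace cells (x axis) for the genes of 18 lists that reached 20 CPM in either group; points are genes, coloured red at 2-fold higher, blue at 2-fold lower and grey between, and black bars are list medians; the VEGF, junction and leukocyte capture lists here include Flt1, Cdh5 and Selp, which chose the cells. Most endothelial lists lie to the right (pan-endothelial median 6.48), but the angiocrine list has a median of 0.07. Chondrocyte, fibroblast and neutrophil lists lie to the left (medians -2.03, -2.72 and -3.84). The mural list here includes the mural genes that the rule limited in the members.

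Among all genes at 100 CPM or more in either group, Selp (ratio 1066), Cyp1a1 (842), Emcn (384), Adgrl4 (329) and Cyyr1 (284) had the highest ratios over other trace cells. The places of Selp, Emcn and Adgrl4, and those of Cdh5 and Flt1 within the top 25, were set by the rule. Cyp1a1, a detoxifying enzyme switched on through the aryl hydrocarbon receptor, had 470 UMIs in only 36 members, 24.5% of them in 1 cell. The same top 25 held Rasgrp3, Nav3, Rapgef5, Rasip1, Myct1, Mctp1, Nova2, Csf3 and Shank3, at ratios from 87.2 for Shank3 to 230 for Rasgrp3. The lowest ratios were those of the neutrophil granule genes Camp (0.00843), Ngp, S100a8 and S100a9, of Msmp, Serpina3n, Chil1 and Serpina1b, and of the mesenchymal genes Gas1 and Pdgfra (0.0910). When only chondrocyte-gated cells were the comparison, the signs of Ngp, S100a8 and S100a9 turned.

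Clustering split the 352 trace members into 6 sub-clusters, described here by their genes. The clustering was made from these same counts, on 1000 variable genes, so no difference between sub-clusters was tested. A subtype marker is called raised in a sub-cluster at 20 CPM or more and 1.5-fold or more over the other trace members. The share of all genes raised by this measure was not computed, so the counts of raised markers below have no background beside them and establish no subtype. Pecam1 was detected in all 6, from 311 CPM in sub-cluster 5 to 1276 CPM in sub-cluster 2. At a Leiden resolution of 1 there were 9 groups, and 5 when the top 5% of doublet scores were removed.

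Sub-cluster 3 (57 cells) had 6 of 12 venous markers raised, namely Nr2f2, Ackr1, Vwf, Selp, Lrg1 and Slco2a1, while sub-cluster 1 had 7 raised, also with Vwf, Selp, Lrg1 and Slco2a1 and with Sele and Icam1. Selp stood at 2706 CPM in 50 of its cells, Ackr1 at 188 CPM in 13 cells, and Mctp1 at 6511 CPM in 50 cells. It also held most of the Csf3 (537 CPM in 16 cells) and Ptgs2 (400 CPM in 6 cells), the granulocyte growth factor and the inducible prostaglandin synthase. Procr was highest here, at 294 CPM with a UMI in 24 of 57 cells, against 28.0 CPM in 6 of 96 cells of sub-cluster 1. The neutrophil genes Retnlg, S100a8 and S100a9 also led it, each from 2 to 5 cells, and Hbb-bs (5374 CPM) came from 9. With these among its leading genes it keeps its number, and no venous-like group was found when the top doublet scores were removed.

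Sub-cluster 4 (46 cells) had 7 of 11 sinusoidal markers raised, Stab1, Stab2, Mrc1, Dnase1l3, Tfpi, Adamts5 and Flt4. It also had 7 of 13 tip and angiogenic markers raised (among them Dll4 and Pgf), 5 of 15 arterial and 4 of 12 capillary markers. Stab1 was at 140 CPM in 15 cells, while Stab2 (167 CPM in 6 cells) and Tfpi (1741 CPM in 22 cells) had 71.0% and 50.2% of their UMIs in 1 cell. Stab2 and Tfpi were the 2 sinusoidal markers among its 10 leading genes, so sub-cluster 4 keeps its number. A sinusoidal-like name fell on 10 cells at a Leiden resolution of 1 and on 31 cells without the top doublet scores. Genes found in most of its cells included Akap12, a signalling scaffold, at 1326 CPM in 37 cells, and Adgrl4 at 1752 CPM in 38 cells. Angptl4, a lipase inhibitor induced by low oxygen and fasting, was at 868 CPM in 16 cells and Pgf at 528 CPM in 22. Kdr was also highest here, at 512 CPM in 30 cells.

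Sub-cluster 2 (92 cells) had Emcn at 2373 CPM in 79 cells and Cdh5 at 960 CPM in 78. Of 15 arterial markers 5 were raised, Sox17, Sema3g, Dll4, Stmn2 and Cxcl12, against 8 in sub-cluster 1 and 5 in sub-cluster 4, and 6 of 13 tip and angiogenic markers. However, 28 of the 56 Cxcl12 UMIs came from 1 cell, and the arterial name did not recur in either other clustering, so the group keeps its number. Sub-cluster 1 (96 cells) carried the highest immediate-early signal, with Egr1 at 793 CPM in 54 cells and Fosb at 434 CPM in 41, along with Icam1 at 1395 CPM and Sele at 616 CPM in 37 cells. Besides 8 of 15 arterial and 7 of 12 venous markers, it had 5 of 8 lymphatic markers raised. Its leading fibroblast and lymphatic genes rested on few cells, Clec3b on 2, Lum on 3 and Ccl21a on 3, and it stays unnamed. Tdtomato was also highest here (159 CPM in 23 cells).

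Sub-cluster 5 (36 cells) held the chondrocyte signal. Its 12 chondrocyte markers summed to 46287 CPM, with Prg4 at 14822 CPM in all 36 cells and Acan at 3483 CPM in 32, and its median cell had 6148 UMIs. Its endothelial genes were low but present, with Emcn at 651 CPM in 23 cells and Pecam1 at 311 CPM in 27. Sub-cluster 6 (25 cells) joined high Emcn (2201 CPM in 23 cells) with Angpt2 at 775 CPM in 17, the iron exporter Slc40a1 at 665 CPM in 17 and Cd36 at 775 CPM in 11. Cyp1a1 was at 1865 CPM here in 9 cells, and 0 in sub-clusters 1 and 4. Its leading blood-cell genes came from few cells, Meis1 from 4, Plac8 from 2 and Ptprc from 3. Both groups stay unnamed.

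**Figure D4:**
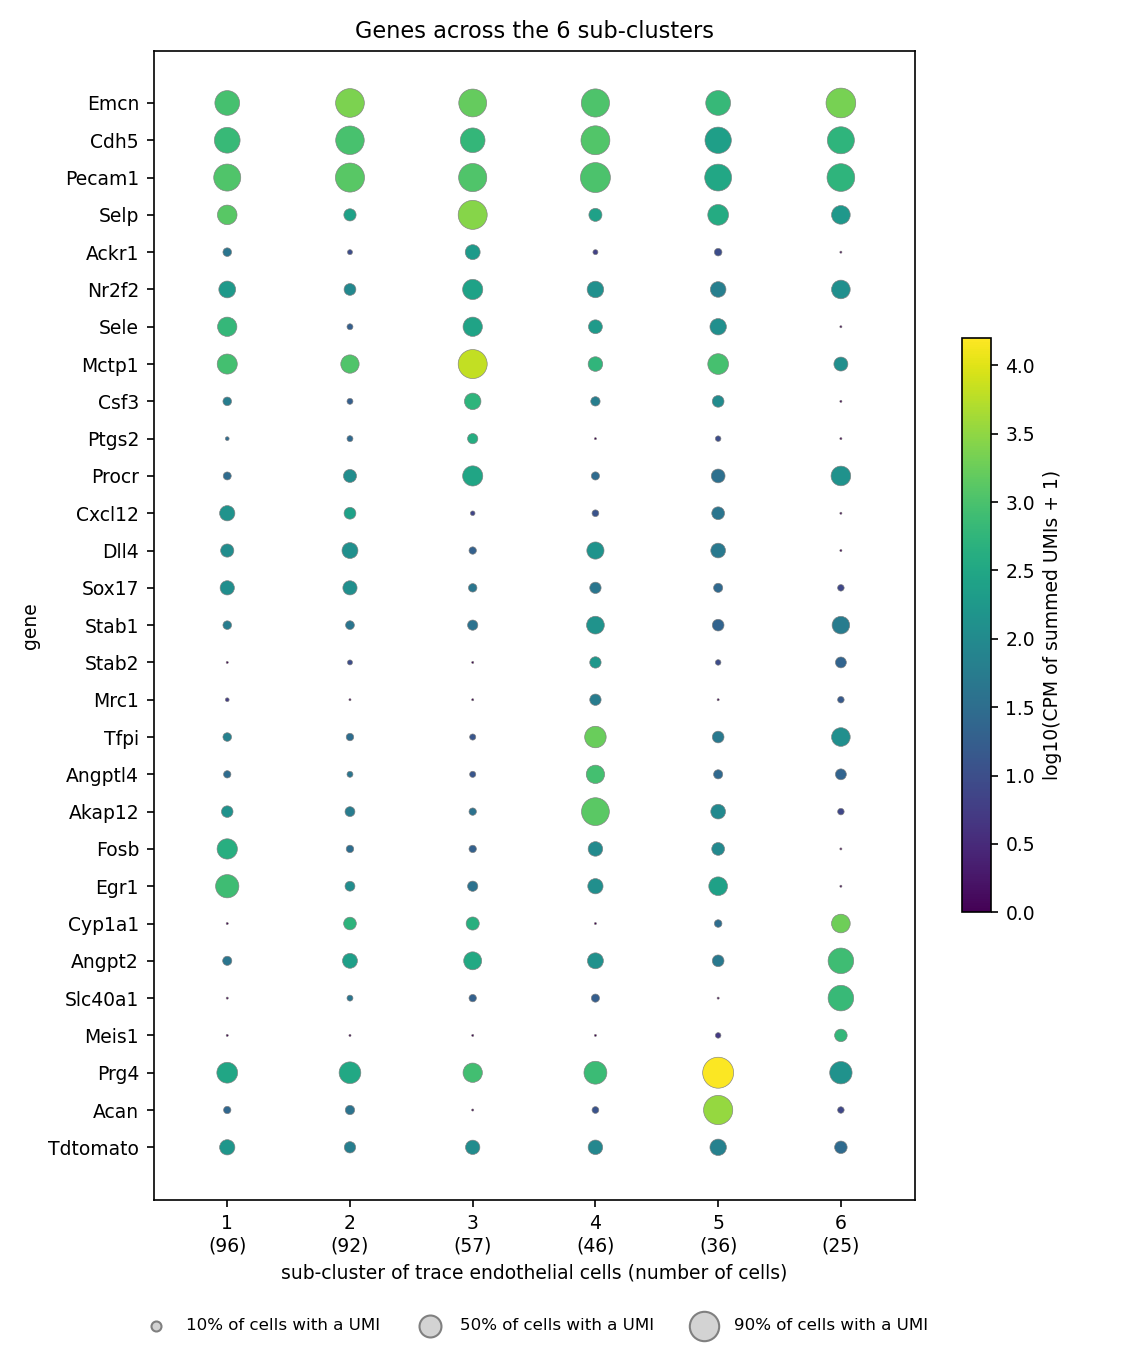
Level (colour, log10 of CPM of summed UMIs plus 1) and share of cells with a UMI (dot area) for 29 genes (y axis) in the 6 sub-clusters of trace endothelial cells (x axis). Selp, Ackr1 and Procr are highest in sub-cluster 3, Akap12 and Stab1 in sub-cluster 4, Prg4 and Acan in sub-cluster 5, and Slc40a1 in sub-cluster 6.

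Comparing trace with pulse members asks how the endothelial cells left after the sort differed between 4 weeks and 2 days after tamoxifen. Only 1 library stood on each side. Xist, expressed from the inactive X of females, was at 414 CPM in trace members with 0 UMIs in pulse members, and the Y-linked Ddx3y and Uty gave 1 and 0 UMIs in trace members against 31 and 24 in pulse members. Sex, age, chase time and library therefore cannot be told apart. Of 6947 genes tested, 8.42% were 2-fold higher in the trace and 16.1% lower, and the median log2 ratio was -0.19. The split of calls depended on scaling: 34.3% of called genes were higher as computed and 48.65% after dividing by the median ratio. With the interval also required to miss 1, 3.22% were higher and 10.2% lower. In the other cells of the 2 libraries, 3.35% of 6604 genes were 2-fold higher and 9.22% lower in the trace.

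Of the 24 pan-endothelial genes, 2 were past 2-fold upward in the trace and 4 downward, and their median of -0.07 was 0.12 after dividing by the median ratio, so the share called was near that of all genes. Pecam1 had a ratio of 0.903 (0.769 to 1.07) and Kdr 1.5 (1.05 to 2.21). Eng was 1 of the 2 higher genes, at 838 CPM in the trace and 251 in the pulse (ratio 3.34, 2.47 to 4.63), and Eng in the other cells of the 2 libraries had a ratio of 2.06. The other was the tetraspanin Tspan18 at a ratio of 4.68 on 2 pulse UMIs. Vwf (14.4 against 57.0 CPM) and Cd34 (190 against 422 CPM) were lower in the trace, as were Ramp2 and Ecscr.

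BMP and TGF-beta genes were higher in 5 of 13 and lower in 1 (median 0.82), or 7 and 0 after dividing by the median ratio. Of all 6947 genes tested, 8.42% were higher and 16.1% lower, or 791 and 835 genes after that division. In the other cells of the 2 libraries, 2 of 10 genes of the list were higher and 0 lower (median 0.28). Id3 stood at 579 CPM in trace and 68.4 CPM in pulse members (ratio 8.46, 4.81 to 16.5), the latter from 12 UMIs in 8 cells. The same gene had a ratio of 2.68 in the other cells of the libraries. Id1 had a ratio of 5.05 (2.28 to 13.9) on 6 pulse UMIs, and the inhibitory Smad7 and Smad6 had 3.35 (2.21 to 5.33) and 2.30 (1.13 to 5.45). Smad1 ran the other way, at 370 against 781 CPM (0.474, 0.390 to 0.578). Hes1, a Notch target, had a ratio of 3.34 (1.92 to 6.34) and Sele 3.01 (1.69 to 5.90).

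Basement membrane genes were lower in 4 of 15 and higher in 0 (median -0.46), where 16.1% of all genes tested were lower and their median was -0.19. Their summed level was 4931 CPM in trace and 11308 CPM in pulse members. In the other cells it was 5830 CPM in the trace and 29741 CPM in the pulse, although 3 of 11 tested there were higher and 2 lower (median 0.09). Lama4, an endothelial laminin chain, was at 129 CPM in trace and 633 CPM in pulse members (0.203, 0.158 to 0.262), and Col4a2 at 488 against 1049 CPM (0.466, 0.394 to 0.553). The growth-factor binder Igfbp3 was at 67.7 against 485 CPM (0.140, 0.102 to 0.192), with the pulse UMIs from 12 cells and 45.9% of them in 1. Gpihbp1, which anchors lipoprotein lipase on capillaries, was at 18.6 against 131 CPM (0.142, 0.0755 to 0.267). Heat shock genes were lower in 4 of 9 and higher in 0, with Hspa1b at 4484 against 13355 CPM, and in pulse members 22.8% of that came from 1 cell.

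Of 10 tested cycling genes, 7 were lower in trace members (median -2.09), among them Top2a with 2 UMIs against 18 and Tpx2 with 1 against 11. At most 4 of the list reached 20 CPM in trace members. The others passed the floor through the pulse members alone, which favoured lower calls in advance. Of all 6947 genes tested, 16.1% were lower. The 18 Top2a UMIs came from 3 pulse cells, and with each cell weighted equally 1 of 6 tested was lower and 1 higher. Cells with 3 or more cycling markers were 10 of 352 in the trace and 4 of 61 in the pulse. The 6 rRNA-associated transcripts, among them Cmss1 and Lars2, were all higher in trace members (median 2.08). Cmss1 had a ratio of 7.25 in members and 12.2 in the other cells of the 2 libraries, so the other cells carried this difference too. Outside the list, Cdk8 had 4.86 in members and 5.40 in the other cells.

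At the ends of the ranking, the higher genes were Cyp1a1 (398 against 17.1 CPM, ratio 23.3, 7.91 to 113, and 0.984 in the other cells), Lsmem1 (102 against 17.1 CPM), Col1a1, S100a8 and S100a9. The last 2 had 0 UMIs in pulse members and came from 11 and 22 trace cells. The pulse level of Cyp1a1, which Lsmem1 shared, was 3 UMIs, for Cyp1a1 all in 1 of 61 members. In the trace, 36 of 352 members had a Cyp1a1 UMI. Its ratio in the other cells rested on 18 UMIs in the trace and 11 in the pulse. The lower genes were Meox2, a homeobox factor of quiescent endothelium (19.5 against 143 CPM), Ulk4 (16.9 against 171 CPM, a ratio of 0.0990, and 0.103 in the other cells), Incenp (12.7 against 108 CPM), Txndc16, Slc8a1, Lgals1 and AW112010. All 107 pulse UMIs of AW112010 came from 2 cells.

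**Figure D5:**
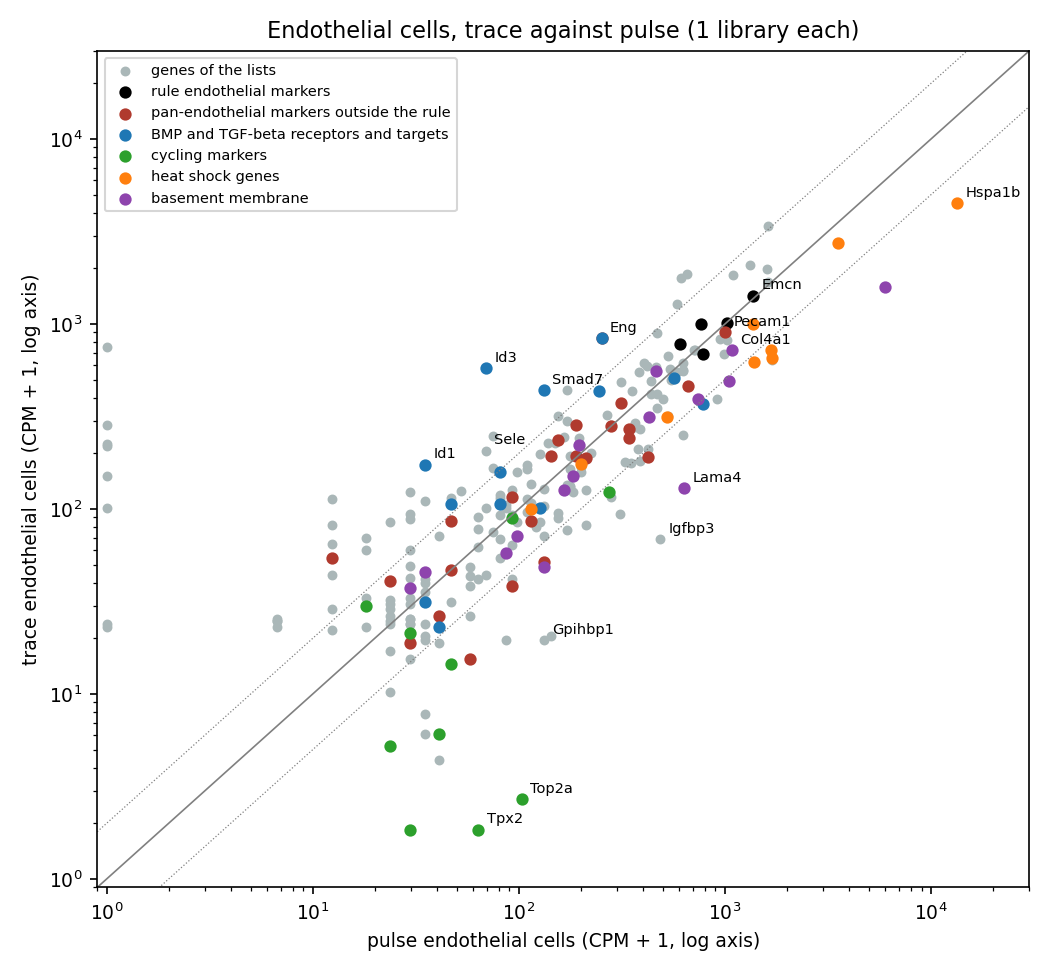
CPM plus 1 in pulse (x axis, log) and trace (y axis, log) endothelial cells for the genes of the lists, 1 library each; coloured points are 6 lists, the solid line marks equal levels and dotted lines 2-fold. Emcn and Pecam1 lie near the line, Eng and Id3 above it, and Lama4, Igfbp3, Top2a and Hspa1b below it.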

How the data were processed

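Gene-by-barcode UMI counts were deposited by the authors as filtered matrices, 1 per library, with no further normalization in the files. The libraries were made with a 10x 3' kit V2, per the labels' protocols. The submitters' processing notes name Cell Ranger 3.0.1 and build mm10, whereas Cell Ranger 7.1.0 stands in the file headers, and the version that made the counts could not be settled. Both matrices held 32286 features, tdTomato among them, and 0 columns of other samples.

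Barcodes with under 500 detected genes or over 10% of UMIs from mitochondrial genes were left out (330 of 6863 in the pulse, 1176 of 10423 in the trace). UMIs were summed over cells and scaled to CPM. A gene was tested at 20 CPM or more in either group and called at 2-fold. Ratios carry exact conditional Poisson and shares exact Clopper-Pearson 95% intervals, and 3 UMIs served as the floor for a count of 0. Chondrocyte-, fibroblast- and neutrophil-gated cells had 3 or more of their gate genes and at most 1 gene of each rule list. Cells that passed more than 1 of these gates were left out of them. Mural-gated cells had 2 or more of the rule's mural genes and at most 1 of its endothelial genes. Sub-clusters used 1000 variable genes, 20 components, 15 neighbours and Leiden resolution 0.5 (scanpy 1.11.5 with leidenalg 0.10.2, and scipy 1.17.1 for intervals, under Python 3.11.15). Scrublet marked 0 cells in both libraries and was not usable as a caller, so doublets were kept, and removal of the top 5% of scores was an alternative. The scripts were tested on simulated data.

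Members and gene lists were chosen with earlier results of these data known. Genes were named by rule: the rule's markers, Pecam1, Procr and Tdtomato, as many as 6 genes of a list by size of ratio or for a described role, the 25 highest and 10 lowest against other trace cells and the 12 highest and 12 lowest between libraries at 100 CPM or more, and the 10 leading genes of each sub-cluster. The rankings skipped unnamed, mitochondrial, ribosomal, immunoglobulin and haemoglobin genes. Hbb-bs, Ptprc, Tspan18, Jun, Egr1 and Slc40a1 were chosen after their values were seen. Some genes that the rule would name are not reported here.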

Additional observations from a re-analysis of the deposited data

Results flagged for a closer look

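Several genes stood on opposite sides of equality in the 2 libraries when endothelial cells were set against the other cells of their own library, and these differences were not tested. Gucy1a1, a mural gene of the rule, had a ratio of 0.335 in the trace and 39.8 in the pulse, where 7 UMIs in 5 cells made up its level. The cycling genes Top2a and Tpx2 had ratios of 0.0867 and 0.0935 in the trace and 3.51 and 2.71 in the pulse, again from 3 and 2 pulse cells. Lgals1, a galectin, had 0.379 in the trace and 5.80 in the pulse, with 44.4% of the 27 pulse UMIs in 1 cell. Egr1, an immediate-early gene, had 1.15 in the trace and 0.585 in the pulse. Cmss1 and Lars2, transcripts that carry rRNA-like sequence, had 0.755 and 0.691 in the trace and 1.27 and 1.35 in the pulse. Outside the filtered cells, 4 pulse and 31 trace barcodes met the marker rule but had too few genes or too high a mitochondrial share, and they entered no value above.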

How the results depend on the processing

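No paired analysis was possible because each group was 1 library, with no replicate to leave out. The depth of a member, a median of 2536 UMIs in the trace, limits every share of cells with a UMI, and the 61 pulse members limit the comparison between libraries.

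With 1000 or more detected genes required, the endothelial share was 0.626% in the pulse and 3.15% in the trace, and the shares with Pecam1 and Procr were 88.2% and 26.8%. With 3 of the 5 markers required, the trace share was 2.92%. Thinning gave 59.2% for Pecam1, 7.86% for Procr and 11.8% for Tdtomato. With no filter on low genes, 11040 were higher and 2547 lower against other trace cells, and 7450 were lower in trace than in pulse members, or 1957 with a floor of 10 CPM. The cause of these shifts was not tested beyond the filters themselves. Leaving out the members that carried chondrocyte markers, an alternative chosen after seeing the data, gave 1442 higher and 1213 lower against other cells.

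Of 322 values for named genes, 215 were called at 2-fold. Of these, 24 changed sign and 31 fell short of 2-fold under some alternative. Against chondrocyte-gated cells only, the log2 ratio was 1.22 for Notch3, 0.93 for Myh11, 0.44 for Rgs5, 6.39 for Gucy1a1, 2.14 for Rgs4, 1.67 for Ngp, 1.44 for S100a8, 1.78 for S100a9, 0.48 for Lgals1, 2.72 for Ptprc, 2.65 for Retnlg and 1.91 for Clec3b. With mural-gated cells left out it was 0.38 for Myh11, 1.61 for Gucy1a1 and 1.04 for Rgs4. With 3 markers required it was -0.15 for Slc8a1, -1.65 for Ccl21a and -2.53 for Meis1, and with 1000 genes required it was -3.34 for Hbb-bs.

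Between trace and pulse members, requiring 3 markers gave 2.25 for AW112010, -0.54 for Sema3g and -2.65 each for Ccl21a, Meis1 and Plac8. Requiring 1000 genes gave -0.49 for Lrg1 and -1.22 for Sema3g. Equal weight per cell gave 1.88 for Notch3 and -0.05 for Plac8. Without chondrocyte-carrying members the values were 1.13 for AW112010 and -1.36 for Lum, without the top doublet scores -1.53 for Lum, and without members carrying blood markers -1.99 for Plac8. The cause was not tested.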

Other observations

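The 36 trace members with a Cyp1a1 UMI had Emcn at 2697 CPM and Flt1 at 436 CPM, whereas the 316 without one had 1236 and 1078 CPM. Their Eng level was 1134 against 795 CPM and their Procr level 195 against 80.4 CPM. The former were deeper, with a median of 3689 UMIs against 2458. These groups of cells were defined from their counts, came from 1 library and were not tested.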
